A study of Mus musculus with 35 samples.

Results

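Genes of the 2-cell embryo that have been linked to the transcription factor DUX were followed by name through the gene count table. Of 9 genes listed by symbol, 8 had a row among the 24480 genes: Zfp352, Tcstv1, Tcstv3, Usp17lc, Usp17ld, Tdpoz1, Tdpoz3 and Tdpoz4. Duxf3, the gene of DUX itself, was not analysed here. RNA was sequenced from wild-type C57BL/6NRj mouse embryos that had received a cytoplasmic injection of Kdm5b-yfp mRNA, which encodes an H3K4 demethylase fused to a fluorescent protein, or of the nuclease-free water used to elute it. Zygotes were collected 17 h after ovulation, with 10 Ctrl water zygotes and 10 Kdm5b zygotes, each a single embryo. Early 2C embryos, collected 5.5 to 8 h after division, gave 9 Ctrl water 2C samples, of which 6 were single intact embryos, and 6 Kdm5b 2C samples, of which 5 were. The other 2C samples were pools of 2 or 3 blastomeres from as many embryos. All samples were collected 5 to 6 h after injection.

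DUX is a homeodomain protein that appears briefly around the start of embryonic transcription, binds the MT2 long terminal repeats of the endogenous retrovirus MERVL and switches on a set of genes used by the 2-cell embryo. Zfp352 encodes a zinc-finger protein, Tcstv1 and Tcstv3 are paired genes named for their transcripts in 2-cell embryos, the Usp17l genes encode deubiquitinating enzymes that remove ubiquitin from proteins, and the Tdpoz genes encode proteins with TRAF and BTB/POZ domains. Such genes are also read in the rare cultured embryonic stem cells that resemble 2-cell embryos.

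Gene counts summed to between 8705584 and 17797581 fragments per sample. The Kdm5b row, which took 2.30% to 10.4% of the counts in Kdm5b zygotes and 8.27% to 15.8% in Kdm5b 2C samples but at most 0.0189% in any control, was removed before normalisation, and levels are given as CPM, which scales each count to the size of its library after TMM normalisation. CPM is a share of the library, so it does not tell more RNA of a gene per embryo from less RNA of other genes. All 12 oocyte and maternal transcripts checked, Zp3 and Gdf9 among them, were counted in every sample. The summed level of 11 cumulus cell markers was 0.879 to 15.7 CPM in any sample, with 2 markers at 0 throughout the control zygotes and 3 throughout the control 2C samples. Zygote and 2C libraries were prepared on separate days, and 2C embryos came from thawed zygotes, so stage, library day and freezing cannot be told apart.

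The members formed 3 small families and a single gene. Zfp352 (GRCm38 chromosome 4, 90218820 to 90225687, plus strand) has 2 exons of 2261 bases in the deposited annotation. Tcstv1 (from 119893387 to 119894785, minus strand) and Tcstv3 (from 120316862 to 120318261, plus strand) lie 422 kb apart on chromosome 13. Usp17ld (from 103250086 to 103252505, minus strand) and Usp17lc (from 103416696 to 103419174, plus strand) lie 164 kb apart on chromosome 7. Tdpoz1 (from 93669333 to 93676283, minus strand), Tdpoz4 (from 93796398 to 93797510, plus strand) and Tdpoz3 (from 93826020 to 93827117, plus strand) lie on chromosome 3, with 28.5 kb between the latter pair.

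Members of a family are alike to differing degrees, which bears on their counts because fragments with more than 1 best position were not counted. In the longest GENCODE transcript of each member, 97.8% of 1988 aligned bases were identical between Usp17lc and Usp17ld, 92.1% of 656 between Tcstv1 and Tcstv3, and 88.6% of 1102 between Tdpoz1 and Tdpoz3. Of the stretches of 91 bases in each transcript, 98.63% in Zfp352 and 95.04% in Tcstv1 occurred in no other gene. That share was lower for Usp17ld, at 59.3%, and for Tdpoz3, at 51.0%. Tdpoz4 was 77.7% identical to Tdpoz1 and to Tdpoz3, and 86.3% of its stretches occurred in no other gene. The Tdpoz members shared stretches with genes outside the list, such as Gm4982 for Tdpoz3, and not with each other. Counts of the Usp17l and Tdpoz genes are therefore those of the parts that differ, and the division between near-identical copies such as Usp17lc and Usp17ld is uncertain.

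RefSeq promoter windows of GRCm38.p6 were matched for 5 members, Zfp352, Usp17lc, Usp17ld, Tdpoz1 and Tdpoz4. The 250 bases before the start are shown for 4 of them because they display what the windows share. The Usp17lc and Usp17ld windows, chr7:103416446-103416695 (plus strand) and chr7:103252506-103252755 (minus strand), were 80.5% identical when aligned, and each holds the letters TATAAA, in capitals. The Zfp352 window, chr4:90218570-90218819 (plus strand), and the Tdpoz1 window, chr3:93676284-93676533 (minus strand), were 55.0% identical and carry 3 and 2 copies of ACACCTTTA, also in capitals. All other pairs among the 5 windows were 46.2% to 50.7% identical, so 55.0% is not far from that of windows of different families.

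Zfp352: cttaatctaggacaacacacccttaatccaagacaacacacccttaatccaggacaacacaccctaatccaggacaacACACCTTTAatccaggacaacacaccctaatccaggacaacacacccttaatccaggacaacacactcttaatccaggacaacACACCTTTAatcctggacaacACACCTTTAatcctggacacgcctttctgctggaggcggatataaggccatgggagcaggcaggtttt
Tdpoz1: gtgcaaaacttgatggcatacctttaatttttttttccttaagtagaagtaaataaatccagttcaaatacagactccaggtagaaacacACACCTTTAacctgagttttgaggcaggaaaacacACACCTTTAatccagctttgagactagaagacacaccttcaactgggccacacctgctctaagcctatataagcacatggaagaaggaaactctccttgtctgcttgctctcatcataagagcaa
Usp17lc: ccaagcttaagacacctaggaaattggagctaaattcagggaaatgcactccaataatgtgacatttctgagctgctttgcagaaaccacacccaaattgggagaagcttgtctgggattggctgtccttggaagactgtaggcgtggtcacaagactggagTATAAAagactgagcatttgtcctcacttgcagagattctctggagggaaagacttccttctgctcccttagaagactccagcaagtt
Usp17ld: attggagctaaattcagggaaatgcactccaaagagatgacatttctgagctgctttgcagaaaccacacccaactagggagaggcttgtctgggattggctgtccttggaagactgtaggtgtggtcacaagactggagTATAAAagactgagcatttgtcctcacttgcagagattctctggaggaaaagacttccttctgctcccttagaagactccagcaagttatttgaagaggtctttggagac

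TATAAA, searched on the gene's strand, was present in 7.59% of 32851 promoter windows of this length, and ACACCTTTA, chosen after these windows were read and searched on that strand, in 0.213%. The 9 letters TGATTCAAT, the start of the binding motif reported for mouse DUX, were searched on both strands of the 300 bases around the start. They were in 37 of the 32851 windows, 0.113%, and in 0 of the 5 members' windows, which describes only these letters in this window.

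The comparison of control embryos asked how the members' levels differed between the stages. All 8 members had higher mean levels in control 2C samples than in control zygotes, and the sizes differed by family, with Tcstv1 lowest at 2.48-fold and Tdpoz1 at 58.5-fold. A call needed an adjusted p under 0.05 and a log2 fold change past 1 in edgeR's quasi-likelihood test. Of the members, 7 passed the filter on low counts and all 7 were called higher, beside 9.20% of the 11968 genes tested. Tdpoz1 and Tdpoz3 passed that filter through their 2C counts, so those calls were nearly fixed by it. Zfp352 (0 to 118 counts in control zygotes) and Tcstv3 (6 to 57) also passed it only with the help of 2C samples.

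Zfp352 had 42, 7, 1, 18, 118, 26, 106, 22, 39 and 0 counts in control zygotes 1 to 10 and 710, 855, 857, 1948, 491, 1727, 607, 607 and 878 in control 2C samples 1 to 9. Its level was 2.37 ± 2.50 CPM (SD, n = 10) in zygotes and 93.4 ± 54.1 CPM (SD, n = 9) in 2C samples, and the highest zygote, at 7.52 CPM, stayed below the lowest 2C sample, at 55.9 CPM. The log2 fold change was 5.32 ± 0.52 (SE, edgeR adjusted p = 5.85e-09). Zygotes differed widely among themselves, and the zygote without a Zfp352 fragment, replicate 10, was also the one with the fewest Usp17lc counts.

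The deubiquitinase genes also rose. Usp17lc had 11 to 279 counts in control zygotes (median 100.5) and 433 to 2340 in control 2C samples (median 1034), a log2 fold change of 3.92 ± 0.38 (SE, edgeR adjusted p = 3.80e-09). Usp17ld had 0 to 55 (median 28.5) against 92 to 558 (median 183), a log2 fold change of 3.60 ± 0.42 (SE, edgeR adjusted p = 1.02e-07). In both genes every 2C sample was above every zygote.

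Tcstv1 and Tcstv3 were the members with the least change. Tcstv1 was already well counted in zygotes, with 77 to 222 counts (median 147), and had 142 to 411 (median 215) in control 2C samples. Its level was 10.1 ± 2.83 CPM (SD, n = 10) against 24.5 ± 10.4 CPM (SD, n = 9), a log2 fold change of 1.31 ± 0.23 (SE, edgeR adjusted p = 2.92e-05), with the lowest 2C sample at 14.6 CPM just above the highest zygote at 14.1 CPM. Tcstv3 had 6 to 57 counts (median 31.5) in zygotes and 35 to 308 (median 94) in 2C samples, a log2 fold change of 2.66 ± 0.42 (SE, edgeR adjusted p = 9.13e-06). Here 8 of 9 2C samples were above every zygote.

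The Tdpoz genes were close to absent in zygotes. Tdpoz1 had 0 counts in 5 of 10 control zygotes and 11, 6, 4, 3 and 25 in the others, against 28, 80, 138, 357, 26, 716, 113, 123 and 113 in control 2C samples 1 to 9. The log2 fold change was 5.87 ± 0.79 (SE, edgeR adjusted p = 8.12e-07), and every 2C sample was above every zygote. That value was 5.16 without control 2C replicate 6 and 6.79 without control zygote replicate 8. Tdpoz3 had 0 counts in all 10 control zygotes and 86, 105, 93, 275, 8, 225, 105, 72 and 118 in control 2C samples. Its mean level was at least 60.01-fold higher in 2C samples when each zygote is given a floor of 3 counts, the limit that a count of 0 allows. Tdpoz4, below the filter, had 0 counts in all 10 zygotes and 14, 0, 94, 138, 22, 153, 12, 56 and 55 in control 2C samples, at least 31.0-fold higher by the same floor. Floors of this kind cover counting error only.

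Of the 7 members tested, 6 had every 2C sample above every zygote, which held for 6.64% of all genes tested. Among the 6 were Tdpoz1 and Tdpoz3, which entered the test through 2C counts, and Zfp352, which also needed 2C samples to enter. Per length, as TPM, which divides each count by exon length before scaling to the library, the medians in control 2C samples ran from 154 for Usp17lc and 92.5 for Zfp352 through 68.95 for Tcstv1, 33.4 for Usp17ld, 30.1 for Tcstv3 and 23.4 for Tdpoz3 to 13.8 for Tdpoz1 and 13.3 for Tdpoz4. The ranges of neighbours in that order overlapped, as those of Usp17lc (90.02 to 376 TPM) and Zfp352 (70.9 to 250 TPM) did. In control zygotes Tcstv1 led with a median of 34.8 TPM, followed by Usp17lc with 13.0 TPM and Tcstv3 with 7.11 TPM. Together the members took a median of 0.00238% of the counts in control zygotes and 0.0232% in control 2C samples.

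**Figure D1:**
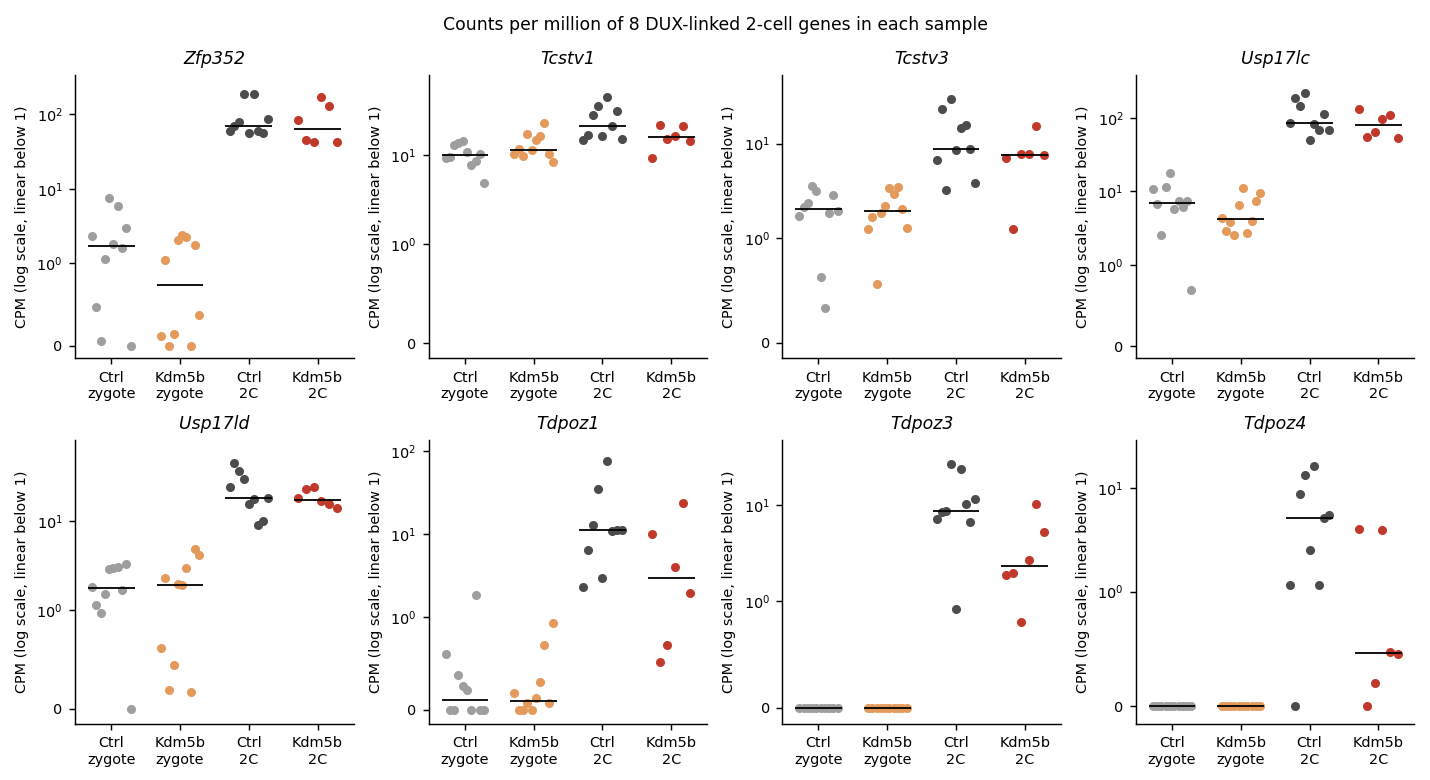
CPM (y axis, logarithmic above 1 and linear below) of the 8 members in each sample of the 4 groups (x axis), with a point for each sample and a bar for the group median. All zygotes are at 0 for Tdpoz3 and Tdpoz4, the zygotes of Zfp352 reach at most 7.52 CPM and its 2C samples start at 42.3 CPM, and the groups of Tcstv1 lie closest together.

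The same stage comparison was made in embryos injected with Kdm5b-yfp mRNA. Zfp352, both Usp17l genes and Tcstv3 were called higher in Kdm5b 2C samples, and Tcstv1 was not. These were 4 of the 5 members that passed the filter, beside 10.5% of the 12390 genes tested in that comparison. Zfp352, with 0 to 38 counts in Kdm5b zygotes, passed it only with the help of 2C samples. Members called were 7 without the filter on low counts, 7 with DESeq2's Wald test and 7 with all 35 samples in a single fit. The 3 Tdpoz genes entered the test in those settings.

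Zfp352 had 2, 14, 0, 2, 33, 38, 37, 0, 23 and 6 counts in Kdm5b zygotes 1 to 10 and 880, 436, 419, 1709, 1348 and 368 in Kdm5b 2C samples 1 to 6, a log2 fold change of 6.36 ± 0.49 (SE, edgeR adjusted p = 1.19e-10). Usp17lc had 34 to 175 counts (median 66.5) against 470 to 1401 (median 817.5), a log2 fold change of 3.97 ± 0.28 (SE, edgeR adjusted p = 3.22e-11). Usp17ld had 2 to 66 counts (median 29.5) against 123 to 239 (median 181), a log2 fold change of 3.25 ± 0.45 (SE, edgeR adjusted p = 1.21e-06). For these 3 genes every 2C sample was above every zygote, as for 12.2% of all genes tested there.

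Tcstv3 had 9 to 53 counts (median 26) in Kdm5b zygotes and 12 to 160 (median 75) in Kdm5b 2C samples, a log2 fold change of 1.93 ± 0.39 (SE, edgeR adjusted p = 0.000157), with 5 of 6 2C samples above every zygote. With the rows of Tcstv1 and Tcstv3 summed, the log2 fold change was 0.67 ± 0.21 (SE, edgeR adjusted p = 0.00741), short of the fold threshold, and the call of Tcstv3 was not kept in that sum. Tcstv1 had 131 to 264 counts (median 174.5) against 97 to 219 (median 157.5), and its log2 fold change of 0.31 ± 0.22 (SE, edgeR adjusted p = 0.222) did not pass. Its interval, from -0.11 to 0.74, lies below that of the control embryos, from 0.86 to 1.76. These 2 contrasts share no samples, and their difference is the interaction tested further on.

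The Tdpoz genes were below the filter in this comparison. Tdpoz1 had 0 to 15 counts in Kdm5b zygotes, with 3 of 10 at 0, and 108, 5, 7, 41, 249 and 17 in Kdm5b 2C samples, of which 4 of 6 were above every zygote. Tdpoz3 had 0 counts in all 10 zygotes and 20, 19, 8, 27, 109 and 46 in 2C samples, at least 18.6-fold higher by the floor. Tdpoz4 had 0 counts in all 10 zygotes and 43, 0, 2, 40, 5 and 4 in 2C samples, at least 7.36-fold higher.

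The study's question for the zygotes was whether removing H3K4me3 with KDM5B starts embryonic transcription early. None of the 5 members tested passed the threshold between Kdm5b and control zygotes, beside 0.00838% of 11933 genes called. At an unadjusted p under 0.05 edgeR passed 1 of the 5, beside 10.3% of all genes, and DESeq2 called 0, with an adjusted p for 2 of them. Estimates were lower after Kdm5b injection for 2 of the 5 members and for 47.4% of all genes. The control received water and no mRNA, so an effect of KDM5B and an effect of any injected mRNA cannot be told apart.

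Zfp352 had the widest zygote estimate, 1.02 ± 1.00 CPM (SD, n = 10) after Kdm5b injection against 2.37 ± 2.50 CPM (SD, n = 10), a log2 fold change of -1.21 ± 0.68 (SE, edgeR adjusted p = 0.567) with an interval from -2.55 to 0.13. Its biological coefficient of variation in that fit was 1.06, against a median of 0.194 over all genes, and 99.97% of the genes had a smaller value. Tcstv1 was the member with an unadjusted p under 0.05, with 13.2 ± 4.41 CPM (SD, n = 10) against 10.1 ± 2.83 CPM (SD, n = 10), a log2 fold change of 0.39 ± 0.18 (SE, edgeR adjusted p = 0.454). Usp17lc, at 5.49 ± 3.02 CPM against 7.68 ± 4.82 CPM (SD, n = 10 each), had a log2 fold change of -0.48 ± 0.34 (SE, edgeR adjusted p = 0.679).

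The estimates of Tcstv3 (0.01 ± 0.35, SE) and Usp17ld (0.03 ± 0.51, SE) were near 0 and changed sign with the treatment of the index numbers that the labels give. Grouped by 8 consecutive index numbers, here called index strips, zygotes of both injections fell into strips 8, 9 and 10. With the strip as a covariate the log2 fold changes were -0.05 for Tcstv3 and -0.19 for Usp17ld. Zfp352 was at a median of 0.795 CPM in the 4 control zygotes of strip 8 and 3.85 CPM in the 4 of strip 9, and at 0.135 and 2.14 CPM in the Kdm5b zygotes of the same strips. Both injections were higher in strip 9, and the part of the strip in the result was not tested.

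In 2C samples the comparison asked the same question of early 2C embryos, taken ahead of the usual time of major genome activation. All 8 members had lower estimates after Kdm5b injection, with a median log2 fold change of -0.64, while 50.3% of the 12244 genes tested were lower, with a median of -0.0028. Tdpoz1, Tdpoz3 and Tdpoz4, with the largest estimates, passed the filter on low counts only with the help of control samples, where they were higher. Their direction was thus not independent of the filter. None of the 8 was called, beside 0.00817% of all genes. At an unadjusted p under 0.05 edgeR passed 2 of the 8, beside 9.41% of all genes, and DESeq2 called 0, with an adjusted p for 4 of them. The 8 members lie at 4 chromosomal sites and were measured in the same samples, so their estimates are not independent.

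The Tdpoz genes had the largest estimates. Tdpoz3 was at 3.83 ± 3.54 CPM (SD, n = 6) after Kdm5b injection and 11.6 ± 8.38 CPM (SD, n = 9) in controls, a log2 fold change of -1.58 ± 0.57 (SE, edgeR adjusted p = 0.369). All 6 Kdm5b samples were below the control mean, and the groups overlapped, with the highest Kdm5b sample at 10.4 CPM inside the control range of 0.922 to 26.8 CPM. Tdpoz4 was at 1.52 ± 1.92 CPM against 5.99 ± 5.75 CPM, a log2 fold change of -1.94 ± 0.95 (SE, edgeR adjusted p = 0.547). Tdpoz1 was at 6.84 ± 8.99 CPM against 18.8 ± 23.6 CPM, a log2 fold change of -1.43 ± 0.77 (SE, edgeR adjusted p = 0.595), and its control mean was raised by replicate 6 at 76.3 CPM. The Tdpoz1 value was -0.72 without that control replicate, -2.41 without Kdm5b replicate 5 and -0.66 when index strip was added to the fit, and that of Tdpoz4 was -0.90 within strip 11 alone.

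The other members differed less. Tcstv1 was at 16.2 ± 4.60 CPM (SD, n = 6) against 24.5 ± 10.4 CPM (SD, n = 9), a log2 fold change of -0.59 ± 0.27 (SE, edgeR adjusted p = 0.506), with all 6 Kdm5b samples below the control mean. Of these, 5 were below the control median. The highest, at 21.6 CPM, lay inside the control range of 14.6 to 43.8 CPM. Tcstv3 had a log2 fold change of -0.70 ± 0.48, Usp17lc of -0.39 ± 0.29 and Usp17ld of -0.30 ± 0.31 (SE). By group medians the Kdm5b to control ratios were 0.75 for Tcstv1, 0.88 for Tcstv3, 0.95 for Usp17lc, 0.96 for Usp17ld and 0.92 for Zfp352. Zfp352 was at 84.9 ± 52.9 CPM against 93.4 ± 54.1 CPM, a log2 fold change of -0.12 ± 0.34 (SE, edgeR adjusted p = 0.964) with an interval from -0.80 to 0.56.

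The direction of Zfp352 was not stable. Of the Kdm5b 2C samples 5 carried index strip 11 and 1 strip 12, while 3 control samples carried strip 11 and 6 strip 12. With the strip as a covariate Zfp352 was 0.21 higher on the log2 scale and 7 of the 8 members were lower, with a median of -0.53. Within strip 11 alone Zfp352 was 0.14 higher and 7 of 8 were again lower, with a median of -0.86. In single intact embryos all 8 were lower, with a median of -0.74. With single samples left out, 7 or 8 members were lower. The medians then ran from -0.85 (without Kdm5b replicate 5) to -0.48 (without control replicate 4). Zfp352 was above 0 in 5 of 15 such fits.

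**Figure D2:**
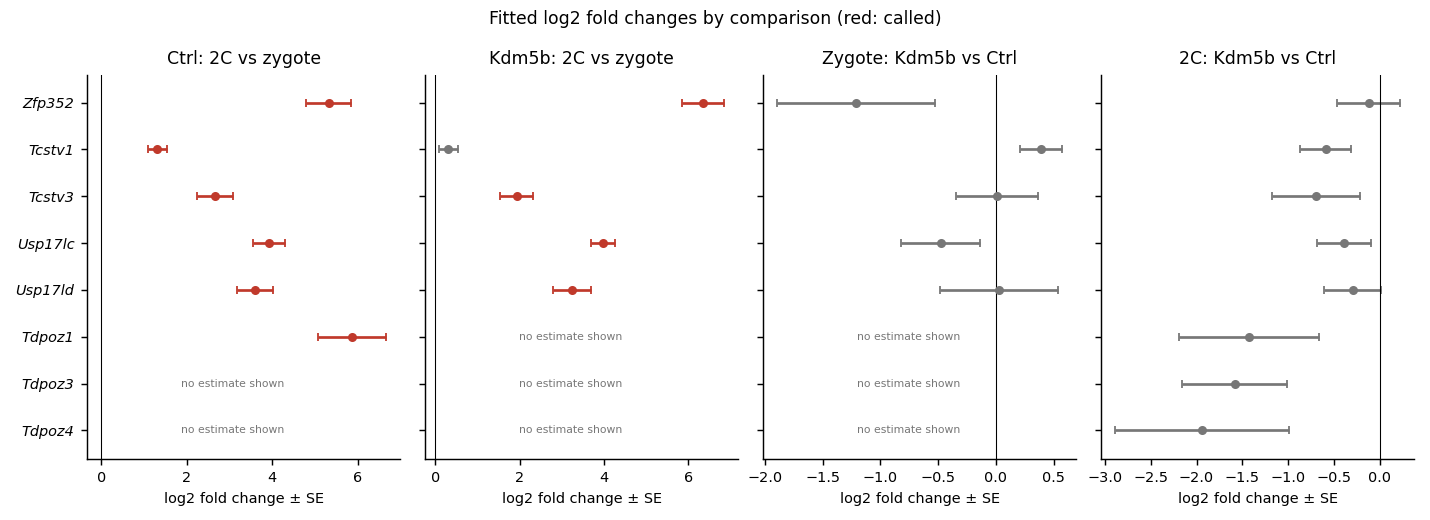
Fitted log2 fold change (x axis) with its standard error (bars) for each member (y axis) in 4 comparisons, with called members in red. Members below the filter, and Tdpoz3 in the control stage comparison where all zygotes were at 0, have no point. The stage estimates lie between 0.31 and 6.36, and the 8 estimates in 2C samples all lie below 0.

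A stage by injection interaction, fitted to all 35 samples, tested whether Kdm5b acted differently in zygotes and 2C samples. Of 13778 genes, 0.109% were called and 9.10% had an unadjusted p under 0.05. None of the members was called by edgeR, 1 had an unadjusted p under 0.05 and DESeq2 called 0. That member was Tcstv1, whose estimate was above 0 in zygotes and below 0 in 2C samples, a difference of -0.98 ± 0.33 on the log2 scale (SE, edgeR adjusted p = 0.275). Zfp352 had 1.06 ± 0.74 (SE, edgeR adjusted p = 0.717). For Tdpoz3 and Tdpoz4 the term could not be estimated, because no zygote had a count.

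MERVL, which is counted in the table of repeats, was read beside the members. The control zygotes held 1327 to 81299 estimated counts of MERVL-int, the internal part of the retrovirus, while 2C controls held 163715 to 1260420, a log2 fold change of 5.02 ± 0.53 (SE, edgeR adjusted p = 1.30e-07). MT2_Mm, its long terminal repeat, had 2468 to 9904 and 12530 to 85712, a log2 fold change of 3.33 ± 0.27 (SE, edgeR adjusted p = 1.77e-09). Called higher in that comparison were 3.91% of 2635 repeats. In Kdm5b embryos the stage difference was 4.78 ± 0.44 for MERVL-int and 2.698 ± 0.21 for MT2_Mm on the log2 scale (SE), and 5.26% of 2740 repeats were called higher.

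Between Kdm5b and control embryos, 0% of repeats were called in zygotes and 0% in 2C samples. MERVL-int had a log2 fold change of -0.73 ± 0.46 (SE, edgeR adjusted p = 0.873) in zygotes and of -0.94 ± 0.39 (SE, edgeR adjusted p = 0.740) in 2C samples. MT2_Mm had -0.12 ± 0.17 and -0.72 ± 0.32 (SE).

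Zfp352 followed MERVL-int from embryo to embryo in both zygote groups and in control 2C samples. Among the 10 control zygotes the correlation of their log2 CPM was r = 0.94 and rho = 0.95, with permutation p = 2e-05 for r, the smallest that 100000 permutations can give, and p = 1e-04 for rho. Without the 2 samples farthest from the median MERVL-int level r was 0.90, and with strip means subtracted it was 0.96. Among the 10 Kdm5b zygotes r was 0.97 and rho 0.98 (permutation p = 2e-05 and 6e-05), r was 0.98 without the 2 farthest and 0.97 with strip means subtracted. Over the 27 relations computed the adjusted p for r was 0.00027 in both zygote groups.

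In the 9 control 2C samples r was 0.84 and rho 0.85 (exact permutation p = 0.00137 and 0.00607, adjusted 0.0105 and 0.0410), and r was 0.87 both without the 2 farthest and with strip means subtracted. In the 6 Kdm5b 2C samples r was 0.80 and rho 0.66 (exact permutation p = 0.0861 and 0.175, adjusted 0.165 and 0.278), and r was 0.73 over the 4 samples left without the 2 farthest and 0.77 with strip means subtracted. The correlation of MERVL-int with log2 depth was 0.02 in control zygotes and 0.38 in Kdm5b zygotes. All counts of the 8 members together amounted to at most 1.22% of the MERVL-int estimate in any 2C sample and 11.1% in any zygote, those of Zfp352 alone to at most 0.233% in any zygote, and fragments counted in both tables were not tested.

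The Usp17l genes followed MERVL-int in control zygotes. For Usp17lc r was 0.90 and rho 0.78 (permutation p = 0.00156 and 0.0100, adjusted 0.0105 and 0.0451), 0.62 without the 2 farthest zygotes and 0.90 with strip means subtracted. For Usp17ld r was 0.87 and rho 0.81 (permutation p = 0.00254 and 0.00804, adjusted 0.0122 and 0.0434), 0.73 and 0.81 in the same checks. In Kdm5b zygotes Usp17ld had r = 0.77 and rho = 0.70 (permutation p = 0.0136 and 0.0313, adjusted 0.0408 and 0.0940), 0.81 and 0.93 in the checks, and Usp17lc had r = 0.35 (permutation p = 0.316, adjusted 0.389). In control 2C samples Usp17lc had r = 0.71 (exact permutation p = 0.0350, adjusted 0.0860) and Usp17ld r = 0.49 (exact permutation p = 0.181, adjusted 0.272). In Kdm5b 2C samples Usp17lc had r = 0.86 (exact permutation p = 0.05, adjusted 0.113), while Usp17ld had r = -0.72 (exact permutation p = 0.142, adjusted 0.225), which turned to 0.94 over the 4 samples left without the 2 farthest, so its sign rested on them.

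Tcstv1 and Tcstv3 showed no such relation that passed. In control zygotes Tcstv1 had r = 0.55 (permutation p = 0.128, adjusted 0.216), which turned to -0.65 without the 2 farthest samples, so it rested on them. In the 9 control 2C samples Tdpoz1 had r = 0.83 and rho = 0.85 (exact permutation p = 0.00520 and 0.00607, adjusted 0.0201 and 0.0410), 0.63 without the 2 farthest and 0.90 with strip means subtracted. Tdpoz3 had r = 0.79 and rho = 0.78 (exact permutation p = 0.00271 and 0.0172, adjusted 0.0122 and 0.0581) there, 0.74 and 0.79 in the checks. Relations with MERVL-int were computed for members only, so the share of all genes with such a relation is not known. Of the 27 relations, 9 had an adjusted p for r under 0.05. These were 3 of 5 in control zygotes and 2 of 6 in Kdm5b zygotes. In 2C samples they were 3 of 8 in controls and 1 of 8 after Kdm5b injection. The last was Tdpoz4, with r = 0.85 and rho = 0.94 (exact permutation p = 0.00833 and 0.0167, adjusted 0.0281 and 0.0581), 0.69 without the 2 farthest and 0.97 with strip means subtracted, although 4 of its 6 samples had 5 counts or fewer.

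**Figure D3:**
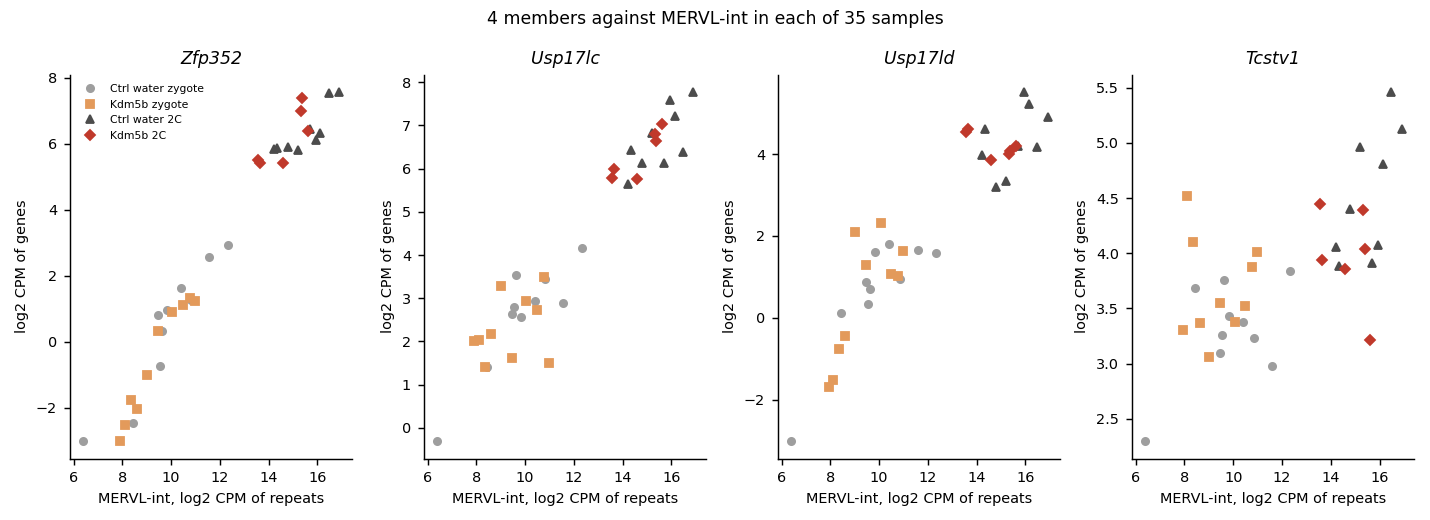
Level of 4 members (y axis, log2 CPM of genes) against MERVL-int (x axis, log2 CPM of repeats) in each of the 35 samples, with a symbol for each group. Both axes are scaled by the library size of the gene counts. Zfp352 rises with MERVL-int inside both zygote groups (r = 0.94 and 0.97), while the zygotes of Tcstv1 show no common slope.

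The members also varied together to differing degrees, described here over the 15 2C samples with each group's mean subtracted. Of 28 pairs, 24 had a correlation above 0, with a mean of 0.33. Zfp352 and Tdpoz1 were the closest pair at 0.80, followed by Tdpoz1 and Tdpoz3 at 0.71. Usp17ld had a correlation of 0.05 with the mean of the members, against 0.93 for Tdpoz1 and 0.90 for Zfp352, and of 0.51 with Usp17lc. That mean includes the member itself and was not scaled, so members with a wide spread, such as Tdpoz1, weigh more in it. In the 20 zygotes the order was different, with Zfp352 and Usp17ld at 0.83 and Zfp352 and Usp17lc at 0.66. Points in such correlations share libraries, and low counts add noise to those of the Tdpoz genes.

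The genes outside the list whose residuals were most like the mean of the members over these 15 samples were Slc34a2, Rbsn, Snrpc, Tdpoz2 and C130026I21Rik, with r from 0.90 to 0.94. For single members the nearest were Zfp809 for Zfp352 (0.92), Slc34a2 for Tdpoz1 (0.93), Mrpl12 for Tdpoz4 (0.92), Fam21 for Usp17ld (0.92), Csrnp3 for Usp17lc (0.90), Gm19757 for Tcstv3 (0.87), Gm11236 for Tdpoz3 (0.86) and Zfp408 for Tcstv1 (0.79). These values describe likeness among many genes and carry no test.

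**Figure D4:**
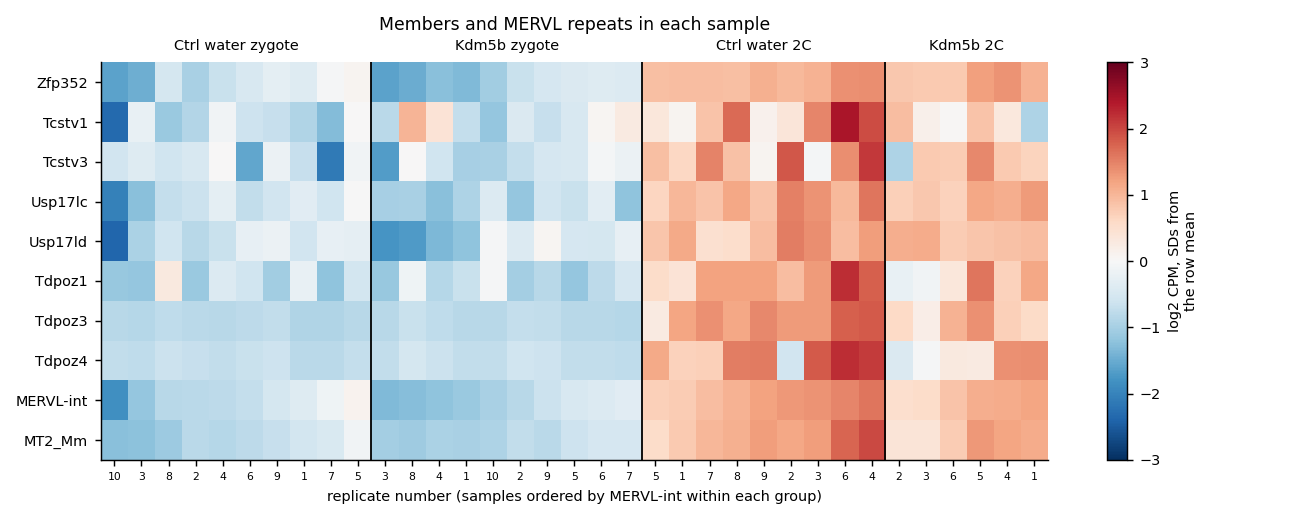
Level of the 8 members and of MERVL-int and MT2_Mm (rows) in each sample (columns, ordered by MERVL-int within each group), as log2 CPM in SDs from the row mean. Control 2C replicates 6 and 4, at the right of their group, are high in most rows, and control zygote 10 is low in Zfp352, Tcstv1, Usp17lc and Usp17ld.

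Other genes of the programme were read beside the members. Of 26 further DUX-linked 2-cell genes, 25 had a row and 20 were tested between control 2C samples and control zygotes, of which 17 were called higher and 1 lower, with a median log2 fold change of 5.14 beside 0.022 over all genes and 9.20% of genes called higher. Of the 20, 10 had a median under 10 counts in control zygotes and passed the filter through their 2C counts, so their calls were nearly fixed by it. Of the other 10, 7 were called higher. That split is by the zygote median alone. At least Spz1 among the 7, with 0 counts in 2 of 10 control zygotes, also needed 2C samples to pass. Gm5662 (9.75 ± 0.53), Gm2022 (8.35 ± 0.65) and Gm8300 (7.83 ± 0.53) had the largest increases on the log2 scale (SE), with 0 counts in 7, 8 and 4 of 10 control zygotes. The gene called lower was Arg2, an arginase of mitochondria, at -1.47 ± 0.20 (SE, edgeR adjusted p = 6.68e-07). Of the members' relatives, 3 were tested and all were called higher, Usp17lb at 5.33 ± 0.62, Usp17la at 5.28 ± 0.58 and Usp17le at 4.10 ± 0.48 (SE), of which Usp17la and Usp17lb also passed the filter through 2C counts.

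Known regulators of Dux were read in the control stage comparison, in which 22.2% of all genes tested were called in either direction, 13.0% were called lower and 57% had an unadjusted p under 0.05. Of 4 known activators of Dux, 0 were called by edgeR between the control stages and 0 had an unadjusted p under 0.05. Of 13 known repressors of Dux or MERVL, 1 was called higher, Mga at 1.00 ± 0.12, and 2 lower, Ncl at -1.41 ± 0.12 and Pcgf6 at -1.17 ± 0.14 (log2, SE), and 10 of the 13 had an unadjusted p under 0.05. Ncl encodes nucleolin, and Mga and Pcgf6 encode subunits of a variant Polycomb complex. Of 12 oocyte and maternal transcripts, 5 were called lower, beside the 13.0% of all genes, with Padi6 at -1.81 ± 0.14, Ooep at -1.81 ± 0.13 and Mos at -1.69 ± 0.24 (log2, SE). Of 7 two-cell embryo markers, all also among the further DUX-linked genes above, 5 were called higher, beside 9.20% of all genes. Among them were Zscan4f at 6.84 ± 0.77 and Tmem92 at 4.63 ± 0.46 (log2, SE), and 2 of the 5 had a median under 10 counts in control zygotes. The other 2 had lower estimates and were not called, Sp110 at -0.25 ± 0.12 and Eif1ad at -0.05 ± 0.20 (log2, SE).

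After Kdm5b injection none of these lists held a gene called by edgeR in either stage. Among the 25 further DUX-linked genes tested in 2C samples, 23 had lower estimates, beside 50.3% of all genes, 5 had an unadjusted p under 0.05, beside 9.41%, and the median log2 fold change was -0.56. In zygotes 10 were tested, 5 of them with lower estimates, beside 47.4% of all genes, and 0 with an unadjusted p under 0.05, beside 10.3%, and the median was 0.05. In 2C samples estimates were also lower for 3 of 4 relatives, 4 of 4 known activators and 10 of 13 known repressors. Of 12 oocyte and maternal transcripts, 4 were lower there. All these estimates come from the same samples and are not independent.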

How the data were processed

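Gene counts, deposited by the authors, are whole numbers of fragments per RefSeq gene of GRCm38 from STAR 2.7.3a and featureCounts 1.5.1, with fragments that map to more than 1 position left out. Estimated counts of 18536 repeats, deposited by the authors, came from SalmonTE and were rounded here. Every sample is described as a biological replicate. Both tables were analysed with edgeR 4.0.16 (R 4.3.3): Kdm5b row removed, filterByExpr with a minimum count of 10, TMM, quasi-likelihood test, Benjamini-Hochberg adjustment over all features, thresholds of 0.05 on the adjusted p and 1 on the absolute log2 fold change, each comparison fitted on its own groups. DESeq2 1.42.0 was an alternative. The edgeR scripts were tested on simulated data. Log2 CPM for correlations used a prior count of 2 and, for genes and repeats alike, the TMM-normalised library size of the gene counts. The 2 sides of each correlation with MERVL-int thus share a divisor. Permutation tests were two-sided (scipy 1.17.1). Depth was 8705584 to 17797581 counts per sample, and intervals are at 95%.

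The members and lists were chosen with earlier results of these data known. All members were named. From each list up to 3 called genes per direction with the largest change were named, and the 5 genes most like the members' mean with 1 per member. Promoters came from RefSeq and transcripts from GENCODE vM21, matched by symbol.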

Additional observations from a re-analysis of the deposited data

Results flagged for a closer look

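Of 36 groups of values checked for a sample that stands apart, 2 were found. The rule's nominal rate is about 1 in 20 groups flagged by chance. Whether that rate holds for levels as skewed as those of Tdpoz1 was not tested. Tdpoz1 was at 1.85 CPM in control zygote 8, from 25 counts, with the next zygote at 0.605 CPM. Tdpoz1 was also at 76.3 CPM in control 2C replicate 6, from 716 counts, with the next 2C sample at 34.7 CPM.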

How the results depend on the processing

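Of 152 recomputed counts of members called, 148 stayed within 1.5 times the value reported. In the control stage comparison summing each family's rows gave 4 called features, which is all 3 families and Zfp352, and in the Kdm5b stage comparison it gave 3, since the summed Tcstv rows stayed under the fold threshold. In the Kdm5b stage comparison DESeq2's Wald test, no filter on low counts and a single fit of all 35 samples each gave 7. Leaving out each sample in turn gave 7 to 8 in the control stage comparison, 4 to 6 in the Kdm5b stage comparison and 0 in every case in both injection comparisons and the interaction. Of 896 recomputed log2 fold changes of members, 43 changed sign, and none of the called ones lost its call where it was tested. In zygotes the reversed values were -0.0017 (single fit), -0.0514 (strip covariate), -0.87 (strip 8 only) and -0.55 (strip 10 only) for Tcstv3, -0.19 (strip covariate), -0.36 (replicate block), -0.63 (strip 8 only) and -0.57 (strip 9 only) for Usp17ld, and 1.07 (strip 10 only) for Usp17lc. In 2C samples Zfp352 was 0.21 with the strip covariate and 0.14 in strip 11 only, and the interaction of Usp17lc was -0.0338 in single intact embryos. With single samples left out the ranges were -0.12 to 0.13 for Tcstv3 and -0.23 to 0.16 for Usp17ld in zygotes, -0.45 to 0.0734 for Zfp352 in 2C samples and -0.16 to 0.24 for the interaction of Usp17lc. The block gave -2.22 for Tdpoz1 and -2.58 for Tdpoz4 in 2C samples and 4.15 for Usp17ld in the Kdm5b stage comparison. The cause of these changes was not tested. The fits within strips were chosen after seeing the data. Same-numbered samples did not deviate together, with 0 pairs of samples correlated above 0.1, so the replicate block pairs samples by number only. With the replicate block the log2 fold change of MERVL-int was 5.11 between the control stages, -0.53 between injections in zygotes and -1.19 in 2C samples, and the counts of members called were 7, 4, 0 and 0. All 12 recomputed values of MERVL-int and MT2_Mm kept their direction and their side of the thresholds. The mean correlation between members was 0.32 to 0.39 in its alternatives. Counts near 0 in zygotes limit what can be said of the Tdpoz genes, and the spread between embryos limits the injection comparisons.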
